A study of Triticum aestivum with 12 samples.

Results

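The 3 pyruvate kinase genes of the group 1 chromosomes of bread wheat (Triticum aestivum) were followed through immature grain. They are TraesCS1A02G213000, TraesCS1B02G226500 and TraesCS1D02G215900, with a single copy on each of chromosomes 1A, 1B and 1D, and they make up 3 of 25269 genes in the deposited table and all 3 genes that it names pyruvate kinase. The gene models in the table lie on these chromosomes only, so genes on other chromosomes were not covered. The 3 copies were singled out because each had been called higher in the mutant line at 20 days in an earlier pass over the same table. The values of that contrast are therefore given here as a description, with no test. The 30-day contrast uses libraries that this choice did not rest on, and it is tested. Earlier results of these data were known when that test was chosen, and its scaling and estimate of spread draw on all 12 libraries.

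RNA was sequenced in 12 libraries, 3 for each of 4 groups. The groups were the mutant line HPm512, labelled with a high antioxidant activity, at 20 days after anthesis, the cultivar Zhoumai22, labelled wild type, at 20 days, HPm512 at 30 days and Zhoumai22 at 30 days. Anthesis is the opening of the flower, and these ages fall within grain filling. The labels do not name the mutation, nor do they say how many plants stand behind a library, so a p-value reflects how far libraries of a group vary, and that variation may be technical.

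Pyruvate kinase carries out the last step of glycolysis: it moves the phosphate of phosphoenolpyruvate to ADP and so makes pyruvate and ATP. Plants have cytosolic and plastid forms of the enzyme. In developing seeds of Arabidopsis the plastid form feeds pyruvate and ATP into fatty acid synthesis, and in cereal endosperm pyruvate also feeds amino acid synthesis. Bread wheat is a hexaploid whose A, B and D genomes came from different ancestors, and copies of a gene at matching places in these genomes are called homoeologues.

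The copies are alike in form. All lie on the minus strand, at 376501862 to 376506945 on 1A, 407296070 to 407300585 on 1B and 301629146 to 301634246 on 1D, in the coordinates of the table, whose genome build is not given in the sources used here. They span 5084, 4516 and 5101 bp, and their FPKM values (read counts scaled by transcript length and library total) imply a counted length of 2141 bp for 1A, 2182 bp for 1B and 2054 bp for 1D. Each is protein-coding and carries the same pyruvate kinase entry and the pathways of glycolysis, pyruvate and purine metabolism. The 1B and 1D copies have 7 gene ontology terms each, among them chloroplast stroma, whereas the 1A copy has 5 and lacks that term.

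Genes beside the copies were looked up in the table. At the lower coordinate the 1A copy has a lipoxygenase, an enzyme that oxidises fatty acids (TraesCS1A02G212900, 21741 bp away), and the 1B copy also has a lipoxygenase (TraesCS1B02G226400, 1581 bp away), while the table does not describe the neighbour of the 1D copy (TraesCS1D02G215800, 752 bp away). The lipoxygenase beside 1A averaged 0.831 ± 0.347 FPKM in HPm512 and 0.469 ± 0.0677 in Zhoumai22 at 20 days, and 0.950 ± 0.165 in HPm512 and 1.74 ± 0.199 in Zhoumai22 at 30 days (SD, n = 3 each). Of these 6 neighbours, which were chosen after the values of the copies were known, 1 was called at 30 days with edgeR's quasi-likelihood test (TraesCS1A02G213100, lower in HPm512), a share near the 22.9% called in either direction over all tested genes.

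Library totals recovered from the table came to 59.3 M to 73.6 M reads. The copies had 176 to 1403 reads per library, which gives a counting error of 2.67% to 7.54% of a value. Near-identical homoeologues can share reads, and how such reads were counted is not given in the sources used here, so the split among copies is uncertain. In whole grain, fewer cells of a type and less RNA per cell cannot be told apart.

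The libraries also differed in what else they held. Endosperm markers (15 of 16 tested, gliadins, glutenins, globulin 1 and thionins) summed to 14396 to 24225 FPKM in HPm512 and 29852 to 31111 in Zhoumai22 at 20 days, and to 21644 to 25537 in HPm512 and 4053 to 4171 in Zhoumai22 at 30 days. Embryo markers (6 of 6 tested) summed to 26.4 to 136 FPKM in HPm512 and 51.2 to 75.6 in Zhoumai22 at 20 days, and to 1370 to 2539 in HPm512 and 2782 to 2956 in Zhoumai22 at 30 days. Green pericarp was followed by its chlorophyll a-b binding proteins, of which 3 of 11 were tested. Their sum was 4.02 to 8.11 FPKM in HPm512 and 8.62 to 11.4 in Zhoumai22 at 20 days, and 0.801 to 1.69 in HPm512 and 0.0480 to 0.408 in Zhoumai22 at 30 days, when 8 of the 11 were at 0 in each line. Endosperm and embryo markers at 0 in a whole group numbered 0. The summed endosperm markers and the summed green pericarp markers thus differed in the direction opposite to the copies in both contrasts between mutant and wild type. The summed embryo markers overlapped at 20 days and were lower in HPm512 at 30 days, the direction of the copies at that age. The part of these tissues in the values below was not tested.

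The 1A copy was the most abundant of the 3 in 11 of 12 libraries. Its level was 9.31, 8.49 and 7.04 FPKM in mutant replicates 1, 2 and 3 at 20 days, against 3.82, 4.84 and 4.99 FPKM in Zhoumai22. At 30 days it was 2.23, 2.68 and 2.21 FPKM in HPm512, against 4.34, 4.46 and 4.24 FPKM in Zhoumai22. The mutant libraries thus lay above all wild-type libraries at 20 days and below all of them at 30 days, while the wild-type libraries of both ages overlapped.

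The 1B copy had 7.64, 8.37 and 5.27 FPKM in HPm512 at 20 days, against 3.00, 3.06 and 4.50 FPKM in Zhoumai22. At 30 days it had 1.42, 1.27 and 1.53 FPKM in HPm512, against 3.11, 3.30 and 3.26 FPKM in Zhoumai22. Its groups stood in the same order as those of the 1A copy, and again only the wild-type groups of both ages overlapped in FPKM as neighbours in that order. After TMM scaling these 1B values did not overlap either, at 3.26, 3.16 and 4.72 at 20 days and 2.79, 3.02 and 2.83 at 30 days.

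The 1D copy had 7.15, 7.02 and 3.99 FPKM in HPm512 at 20 days, against 2.69, 2.71 and 3.16 FPKM in Zhoumai22. At 30 days it had 1.24, 1.31 and 1.30 FPKM in HPm512, against 4.07, 3.83 and 4.38 FPKM in Zhoumai22. Here the order of the groups differed: wild type at 30 days lay above wild type at 20 days without overlap, and mutant replicate 3 at 20 days fell inside the range of wild type at 30 days. That library was the lowest of its group for each of the 3 copies.

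**Figure D1:**
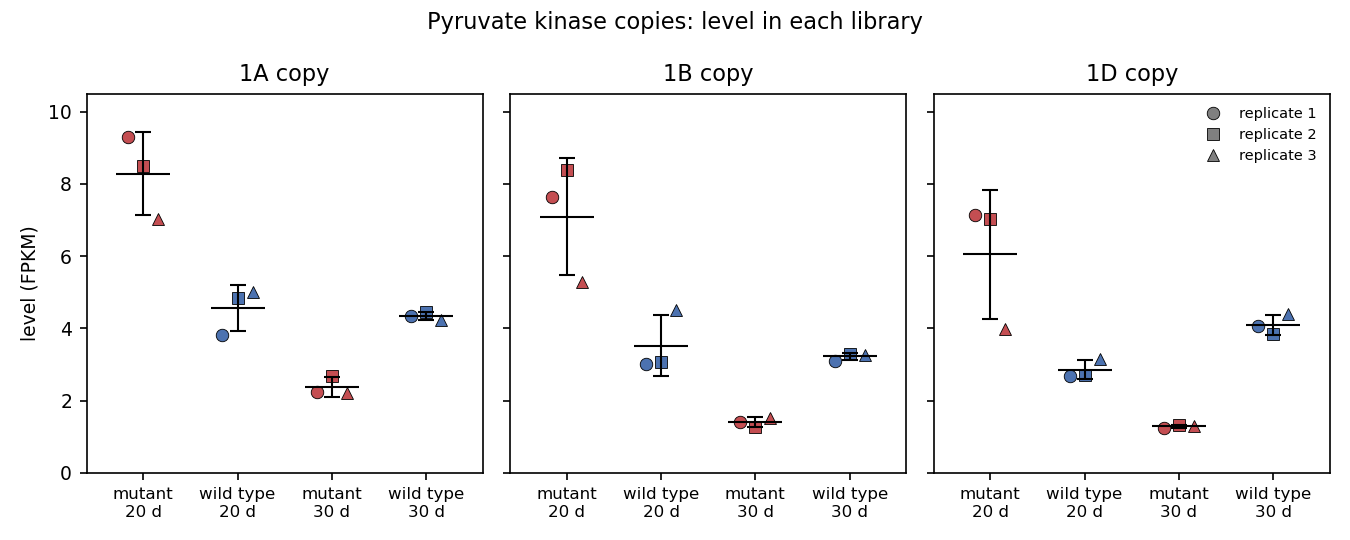
Level of each copy in FPKM (vertical axis) in the 4 groups (horizontal axis). Points are libraries, shaped by replicate number, and bars give the mean and SD of 3 libraries; the mutant at 30 days has the lowest group mean of each copy (2.38, 1.405 and 1.28 FPKM).

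At 20 days the 1A copy averaged 8.28 ± 1.15 FPKM in HPm512 and 4.55 ± 0.638 in Zhoumai22, the 1B copy 7.09 ± 1.62 in HPm512 and 3.52 ± 0.852 in Zhoumai22, and the 1D copy 6.05 ± 1.79 in HPm512 and 2.85 ± 0.267 in Zhoumai22 (SD, n = 3 each). The ratio of mean FPKM, mutant over wild type, was 1.82 for 1A, 2.02 for 1B and 2.12 for 1D. After trimmed mean (TMM) scaling, which sets the bulk of genes near a log2 fold change of 0, the log2 fold changes were 0.56 (SE 0.13) for 1A, 0.69 (SE 0.17) for 1B and 0.76 (SE 0.16) for 1D. In this contrast 0.419% of 5723 tested genes were called higher, and nothing is read from the calls of the copies because they were chosen on them. Without mutant replicate 3 the log2 fold changes were 0.61, 0.82 and 0.95.

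At 30 days, in libraries that the choice did not use, the contrast between mutant and wild type had the opposite sign for every copy. The 1A copy averaged 2.38 ± 0.268 FPKM in HPm512 and 4.35 ± 0.110 in Zhoumai22, the 1B copy 1.405 ± 0.131 in HPm512 and 3.22 ± 0.1003 in Zhoumai22, and the 1D copy 1.28 ± 0.0408 in HPm512 and 4.09 ± 0.276 in Zhoumai22 (SD, n = 3 each). In edgeR's quasi-likelihood test, with Benjamini-Hochberg adjustment over all 5723 tested genes and calls at an adjusted p under 0.05, all 3 fell in HPm512.

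The 1D copy had the lowest log2 fold change, -1.20 (SE 0.17, adjusted p = 0.00021), and each mutant library was lower than each wild-type library. The 1B copy fell by 0.72 on the log2 scale (SE 0.17, adjusted p = 0.00781). The 1A copy fell by 0.40 on that scale (SE 0.13, adjusted p = 0.0412). Over all tested genes 9.30% were called lower and 22.9% were called in either direction with TMM factors. Under that scaling 3 of 3 stands above the background of all tested genes, though copies of a gene can share reads and are not independent. With library totals alone 2595 of 5723 tested genes were called lower, and 4321 after rescaling to equal summed FPKM. How far the copies stand out thus depends on the scaling. That all mutant libraries lay below all wild-type libraries is a weaker observation: this held for 54.8% of tested genes by FPKM and for 21.0% after TMM scaling. At 20 days all mutant libraries lay above all wild-type libraries in 38.4% of tested genes by FPKM and in 11.9% after TMM scaling. By FPKM 2195 genes lay above wild type at 20 days, and 1613 of them also lay below it at 30 days. The copies were chosen as higher at 20 days, and no background of calls was drawn from genes chosen in the same way. Whether the copies fell to different degrees was not tested.

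The calls of the 1B and 1D copies held under each alternative and each left-out library, and that of the 1A copy did not. Its adjusted p was 0.0624 with no filter on low values, 0.0643 in a fit of the 30-day libraries alone and 0.0590 with the replicate number as a block. It was 0.113 and 0.0993 without mutant replicate 1 or 3 at 30 days, 0.0860, 0.115 and 0.0552 without wild-type replicate 1, 2 or 3 at 30 days, and 0.0521 without mutant replicate 2 at 20 days, which shares the estimate of spread.

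Scaling moved the size of these contrasts, and their sign held under each scaling tried. By library totals alone the median of all genes shifted by 0.32 at 20 days and by -0.51 at 30 days (log2, mutant over wild type). Rescaling to equal summed FPKM shifted it by 0.69 and -1.14. These scalings use a single factor per library, which shifts all genes alike, so a distance from the median hardly changes by construction. With TMM factors that distance was 0.54 for 1A, 0.68 for 1B and 0.75 for 1D at 20 days, and -0.36 for 1A, -0.69 for 1B and -1.16 for 1D at 30 days. Quantile normalization, which does not shift all genes alike, gave smaller distances: 0.47 for 1A, 0.57 for 1B and 0.57 for 1D at 20 days, and -0.26 for 1A, -0.43 for 1B and -0.78 for 1D at 30 days. On log2(FPKM + 1) they were 0.51, 0.60 and 0.61 for 1A, 1B and 1D at 20 days, and -0.32, -0.47 and -0.81 at 30 days.

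**Figure D2:**
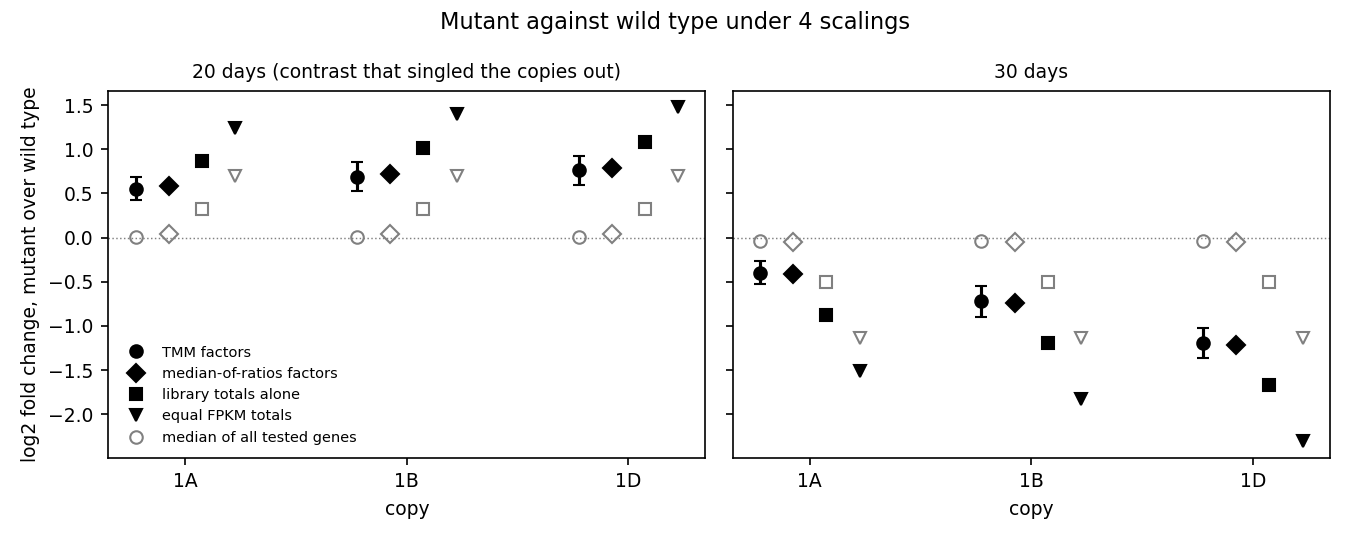
Log2 fold change of each copy, mutant over wild type (vertical axis), at 20 days on the left and 30 days on the right. Filled symbols are the copies under 4 scalings, open symbols the median of all tested genes under the same scaling, and bars the SE with TMM factors; with equal FPKM totals the 1D copy reached 1.48 at 20 days and -2.31 at 30 days and the median, shifted by the same factors, 0.69 and -1.14.

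Changes with grain age are given for each line on its own. These contrasts share their 20-day libraries with the one that singled the copies out, so they are given without a test. Over all tested genes 57.8% were called between the ages in HPm512 and 63.7% in Zhoumai22. In HPm512, 30 days against 20 days, the log2 fold change was -1.26 (SE 0.13) for 1A, -1.78 (SE 0.17) for 1B and -1.68 (SE 0.17) for 1D. In FPKM the mean at 30 days was 0.287, 0.198 and 0.212 of that at 20 days. Without mutant replicate 3 at 20 days the log2 values were -1.32, -1.92 and -1.88.

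In Zhoumai22 the same step gave -0.30 (SE 0.13) for 1A, -0.37 (SE 0.17) for 1B and 0.28 (SE 0.16) for 1D. In FPKM the ratio of means was 0.955, 0.915 and 1.44. With equal FPKM totals the values of 1A and 1B turned positive (0.75 and 0.69), so the direction of wild-type change for these copies depends on the scaling, whereas 1D was positive under every scaling. Measured from the median of all genes, 1A lay at -0.29, 1B at -0.36 and 1D at 0.29 with TMM factors, and at -0.25, -0.26 and 0.23 with quantile normalization.

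The summed level of the 3 copies was 21.4 ± 4.44 FPKM in HPm512 and 10.9 ± 1.60 in Zhoumai22 at 20 days, and 5.06 ± 0.192 in HPm512 and 11.7 ± 0.199 in Zhoumai22 at 30 days. The total was lowest in HPm512 at 30 days, and in Zhoumai22 the totals of both ages overlapped.

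Each copy's share of that sum, on the FPKM scale, sets the copies side by side. The 1D copy held 33.1% to 36.9% of the sum in Zhoumai22 at 30 days, against 24.5% to 29.7% in the other 9 libraries. The 1A copy held 45.7%, 51.0% and 43.8% in HPm512 at 30 days, against 37.7%, 38.5% and 35.7% in Zhoumai22, with no overlap. The 1B copy held 24.1% to 30.4% in HPm512 at 30 days, a range that took in every library of Zhoumai22 (mean 27.6% ± 0.735). At 20 days the ranges of mutant and wild type overlapped for every copy: the 1A copy averaged 39.1% ± 3.84 in HPm512 and 41.7% ± 3.37 in Zhoumai22, and the 1D copy 27.8% ± 2.92 in HPm512 and 26.3% ± 1.77 in Zhoumai22 (SD, n = 3 each).

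**Figure D3:**
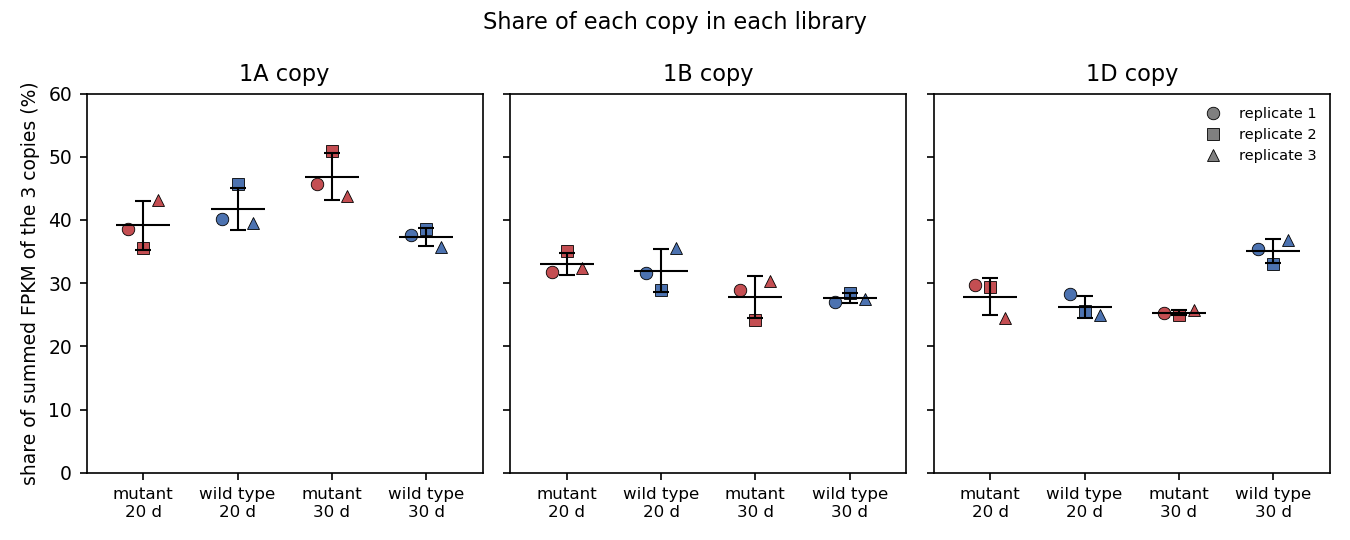
Share of each copy in the summed FPKM of the 3 copies, in percent (vertical axis), in the 4 groups (horizontal axis). Points are libraries and bars the mean and SD of 3 libraries; the 1D share of wild type at 30 days (mean 35.1%) lies above all other libraries of that panel.

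The ratio of 1D over 1A gives the same picture between a pair of copies. On the log2 scale it was -0.88 ± 0.13 in HPm512 and -0.09 ± 0.13 in Zhoumai22 at 30 days, and -0.49 ± 0.29 in HPm512 and -0.67 ± 0.17 in Zhoumai22 at 20 days (SD, n = 3 each). The ratio of 1D over 1B was -0.13 ± 0.16 in HPm512 and 0.34 ± 0.11 in Zhoumai22 at 30 days, when it was positive in each wild-type library.

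Over the 12 libraries, log2(FPKM + 1) of the 1A and 1B copies correlated with r = 0.976 (Spearman rho 0.916), of 1B and 1D with r = 0.938 (rho 0.860) and of 1A and 1D with r = 0.928 (rho 0.797). These values describe 12 libraries in 4 groups that share age, cultivar and scaling. For the 1A copy, 1B ranked number 8 among 5722 other genes and 1D number 197.

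The genes with the pattern most like the mean of the 3 copies were a CTP synthase, which makes a building block of nucleic acids (TraesCS1B02G441900, r = 0.979), a gene with the enzyme number of a DNA ligase (TraesCS1B02G184700, r = 0.979) and a gene with cohesion terms that the table does not name (TraesCS1A02G420000, r = 0.979). A proteasome subunit of the beta type (TraesCS1B02G443900, r = 0.979) and a gene with the enzyme number of a beta-glucosidase (TraesCS1A02G279000, r = 0.978) followed. The ranking used log2(FPKM + 1) without TMM factors, and 0 of these 5 genes were again in the first 5 with Spearman correlation. The CTP synthase was at 3.08 ± 0.731 FPKM in HPm512 and 1.82 ± 0.278 in Zhoumai22 at 20 days, and at 1.02 ± 0.124 in HPm512 and 1.82 ± 0.150 in Zhoumai22 at 30 days. The closest single match to the 1A copy was TraesCS1D02G244400 (r = 0.982), a glycosidase by its terms, to the 1B copy a structural maintenance of chromosomes protein (TraesCS1D02G314600, r = 0.986), and to the 1D copy a SHAGGY-like kinase (TraesCS1A02G125000, r = 0.993). A mutant above wild type at 20 days and below it at 30 days without overlap in FPKM was found in 28.2% of tested genes, so the shape itself is common.

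The other genes of the pathway were taken by enzyme number or description, among the gene models of chromosomes 1A, 1B and 1D that the table holds. They were 65 genes of 13 enzymes, of which 55 passed the filter on low values (at least 1 FPKM in 3 or more libraries) and were tested. At 30 days 12 rose in HPm512 and 10 fell, 33 were not called, and the median log2 fold change was -0.01, against -0.03 over all genes. The calls thus took in 22 of 55 genes, while over all tested genes 22.9% were called, 13.6% higher and 9.30% lower. With library totals alone 5 rose and 28 fell, and over all tested genes 412 rose and 2595 fell, against 780 and 532 with TMM factors. Without mutant replicate 1, wild-type replicate 1 or wild-type replicate 3 at 30 days the falls numbered 5, 3 and 6.

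In the upper part of glycolysis the calls went both ways. Hexokinase, which phosphorylates glucose, had 2 falls among 6 tested genes: TraesCS1B02G366400 was at 4.33 ± 0.302 FPKM in HPm512 and 8.87 ± 0.513 in Zhoumai22 (-0.56, adjusted p = 0.0024), and TraesCS1A02G355200, the most abundant, at 9.69 ± 0.484 in HPm512 and 17.1 ± 0.666 in Zhoumai22 (-0.35, adjusted p = 0.0189). The call of TraesCS1A02G355200 ended without wild-type replicate 1 at 30 days. Glucose-6-phosphate isomerase, which turns glucose-6-phosphate into fructose-6-phosphate, moved in opposite directions. Its 1A gene TraesCS1A02G040600 fell (-0.63, adjusted p = 0.000168; 15.9 ± 1.55 FPKM in HPm512 and 34.2 ± 0.813 in Zhoumai22). Its 1D gene TraesCS1D02G041200 rose with TMM factors (0.46, adjusted p = 0.00167), at 16.2 ± 0.370 FPKM in HPm512 and 16.4 ± 0.327 in Zhoumai22, and turned to -0.01 with library totals alone and to -0.65 with equal FPKM totals.

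ATP-dependent phosphofructokinase, which commits sugar to glycolysis, gave the 3 largest rises of the list. TraesCS1B02G413300 was at 0.453 ± 0.254 FPKM in HPm512 and 0.0713 ± 0.0276 in Zhoumai22 (3.05, adjusted p = 0.000448), a call that ended with quantile normalization and with a pseudocount of 1 in limma. TraesCS1A02G386000 was at 2.98 ± 0.196 FPKM in HPm512 and 0.608 ± 0.176 in Zhoumai22 (2.75, adjusted p = 3.87e-06). TraesCS1B02G413400 was lower still in level, at 0.267 ± 0.0795 FPKM in HPm512 and 0.0799 ± 0.0717 in Zhoumai22 (2.17, adjusted p = 0.0331), and its call ended under 5 of 10 alternatives. The most abundant gene of this enzyme, TraesCS1A02G344000, fell (-0.38, adjusted p = 0.0321), at 15.2 ± 0.512 FPKM in HPm512 and 27.4 ± 0.892 in Zhoumai22; its call ended when any 1 of the 6 libraries of that age was left out.

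Between those steps and pyruvate kinase few of the tested genes were called, but this stretch was covered only in part. Of 23 enzymes looked for, 14 had a gene among these chromosomes. Triosephosphate isomerase, glyceraldehyde-3-phosphate dehydrogenase and enolase had none, so their steps were not measured. The single fructose-bisphosphate aldolase found there, TraesCS1D02G163600, which splits the sugar into trioses, was at 1.69 ± 1.02 FPKM in HPm512 and 0.589 ± 0.596 in Zhoumai22 (1.98, adjusted p = 0.0647). Phosphoglycerate kinase, the earlier ATP-forming step, had 1 fall among 6 genes, and its most abundant gene TraesCS1D02G313800 was at -0.12 (adjusted p = 0.595). Phosphoglycerate mutase had 0 calls among 3 genes with edgeR and 0 with DESeq2 (1 at an unadjusted p under 0.05 with each), and its most abundant gene TraesCS1A02G247500 was at 0.19 (adjusted p = 0.244), a value that turned negative with library totals alone.

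Among enzymes that make or use pyruvate, pyruvate phosphate dikinase interconverts pyruvate and phosphoenolpyruvate, the substrate of pyruvate kinase. Of its 4 genes 2 rose at 30 days with TMM factors, TraesCS1A02G253200 (0.74, adjusted p = 0.0207; 14.5 ± 4.25 FPKM in HPm512 and 12.01 ± 0.238 in Zhoumai22) and TraesCS1D02G252900 (0.59, adjusted p = 0.0331), and both turned negative with equal FPKM totals (-0.37 and -0.53). Leaving out mutant replicate 2 or any wild-type replicate at 30 days also ended both calls. Its most abundant gene, TraesCS1A02G253400, was at 33.8 ± 6.06 FPKM in HPm512 and 39.5 ± 1.03 in Zhoumai22 (0.25, adjusted p = 0.211), levels well above those of the pyruvate kinase copies on the same per-length scale.

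Alanine aminotransferase, which exchanges amino groups between pyruvate and alanine, rose in all 3 genes. The 1A gene TraesCS1A02G085600 was at 51.1 ± 4.48 FPKM in HPm512 and 23.1 ± 1.03 in Zhoumai22 (1.61, adjusted p = 2.43e-06), the 1B gene TraesCS1B02G102700 at 9.17 ± 0.263 in HPm512 and 4.66 ± 0.304 in Zhoumai22 (1.45, adjusted p = 2.84e-05) and the 1D gene TraesCS1D02G086700 at 42.3 ± 1.87 in HPm512 and 23.1 ± 1.72 in Zhoumai22 (1.34, adjusted p = 1.24e-05). With equal FPKM totals the 1D gene was at 0.24 and not called. This set, on the same chromosomes as the pyruvate kinase copies, had the opposite sign at 30 days in each copy.

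The pyruvate dehydrogenase complex turns pyruvate into acetyl-CoA, and only its dihydrolipoyl dehydrogenase, a subunit shared with other complexes, had tested genes here. Of 8 genes 3 fell and 0 rose, and the 3 lie on different chromosomes. TraesCS1B02G124900 was at 1.19 ± 0.369 FPKM in HPm512 and 2.76 ± 0.106 in Zhoumai22 (-0.73, adjusted p = 0.0306), TraesCS1A02G099500 at 3.08 ± 0.575 in HPm512 and 5.84 ± 0.647 in Zhoumai22 (-0.44, adjusted p = 0.0262), and TraesCS1D02G107400 at 4.47 ± 0.310 in HPm512 and 8.03 ± 0.987 in Zhoumai22 (-0.37, adjusted p = 0.0216). Each of these calls ended without mutant replicate 1 and without wild-type replicate 1 at 30 days. The most abundant gene of this subunit, TraesCS1D02G109600, was at -0.13 (adjusted p = 0.253).

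Malate dehydrogenase, which links malate and oxaloacetate, had 2 rises and 2 falls among 7 genes. Its most abundant gene TraesCS1A02G155200 was at 81.5 ± 2.37 FPKM in HPm512 and 78.3 ± 3.53 in Zhoumai22 (0.53, adjusted p = 0.0014), was not called with library totals alone (0.06), and turned to -0.58 with equal FPKM totals. Malic enzyme, which makes pyruvate from malate, had 0 calls among 5 genes with edgeR and 0 with DESeq2 (1 at an unadjusted p under 0.05 with each), with TraesCS1D02G164800 at -0.47 (adjusted p = 0.0898). Alcohol dehydrogenase, an enzyme of fermentation, had 1 rise among 4 genes, and its most abundant gene TraesCS1A02G050100 was at 0.692 ± 0.180 FPKM in HPm512 and 0.758 ± 0.0130 in Zhoumai22 (0.34, adjusted p = 0.24).

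**Figure D4:**
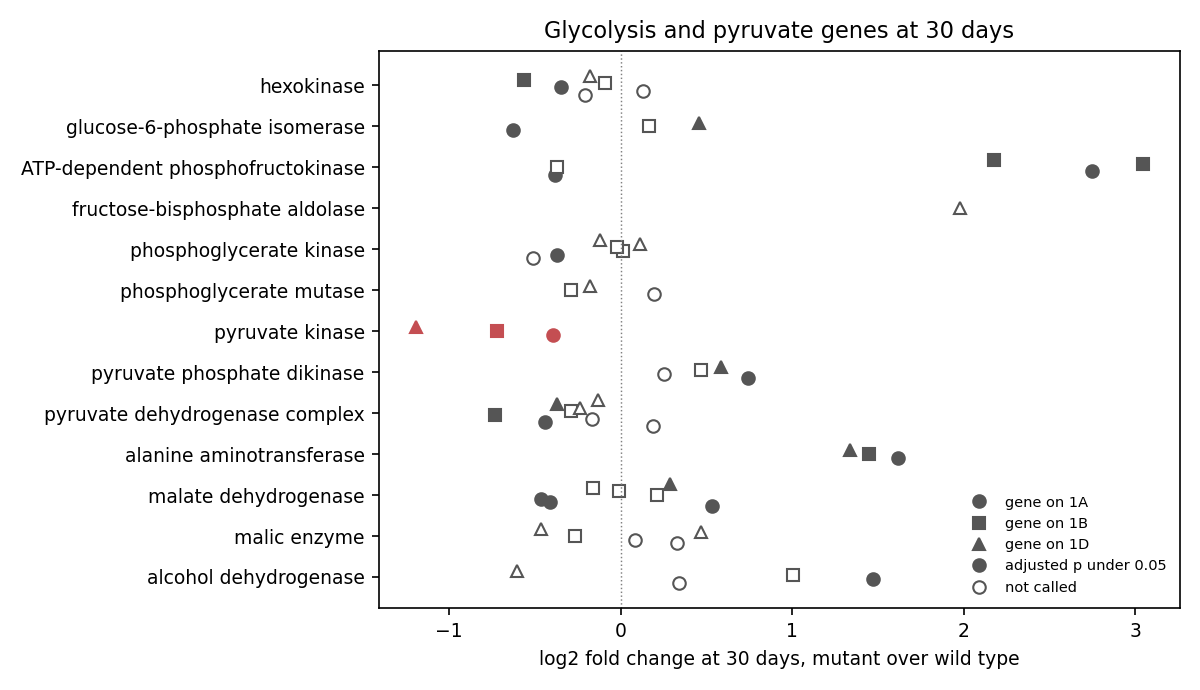
Log2 fold change at 30 days, mutant over wild type (horizontal axis), of the tested genes of each enzyme (rows), with the pyruvate kinase copies in red. Marker shape gives the chromosome and filled markers passed an adjusted p under 0.05; the 1D copy, at -1.20, is the lowest point among the 58 genes.

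The change of the difference between HPm512 and Zhoumai22 with age, an interaction term in edgeR with TMM factors, was called in 21 of the 55 other pathway genes, against 24.0% of all tested genes. With age most of the other pathway genes fell in both lines. In HPm512, 30 days against 20 days, 35 of 55 fell and 7 rose, with a median of -0.54; over all tested genes 27.9% were called lower and 29.9% higher. In Zhoumai22 31 fell and 11 rose, with a median of -0.62, against 31.9% lower and 31.8% higher over all genes. With equal FPKM totals the wild-type split was 16 lower and 27 higher. Pyruvate phosphate dikinase fell in all 4 genes in each line, as in TraesCS1A02G253400, at 33.8 ± 6.06 FPKM in HPm512 at 30 days against 152.6 ± 10.7 at 20 days, and at 39.5 ± 1.03 in Zhoumai22 at 30 days against 124.9 ± 5.57 at 20 days.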

How the data were processed

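The authors deposited a single table of gene counts and FPKM values for 12 libraries. Per the submitters' processing notes, reads were trimmed with cutadapt 1.9 and checked with FastQC. For the aligner, the counter, the genome build and the treatment of reads that match several homoeologues, the record is the same: not given in the sources used here. FPKM is listed at 0.0001 where the count is 0, and 1 incomplete line was left out. The table holds gene models of chromosomes 1A, 1B and 1D with non-coding genes, so library totals were recovered from the counts and FPKM values of 43 non-coding genes with at least 100 counts.

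The deposited counts were fitted in edgeR 4.0.16 (R 4.3.3) with the quasi-likelihood test, means for 4 groups, these library totals and TMM factors. Tests covered the 5723 genes that reached 1 FPKM in 3 or more libraries, with Benjamini-Hochberg adjustment over all of them and calls at an adjusted p under 0.05. The procedure was tested on simulated data, drawn from the same means in all groups apart from changes set in HPm512 at 30 days. Those data held no wider shift of composition between groups, so that test does not cover the choice of scaling. Alternatives used limma 3.58.1 on log2(FPKM + 1) and log2(FPKM + 0.1), DESeq2 1.42.0, other scalings and filters, a replicate block and each library left out. Counting error covers sampling of reads only.

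The members, gene lists and tests were chosen with earlier results of these data known. Named pathway genes are the most abundant of each enzyme and the 3 largest rises and falls at 30 days. Other called genes of 3 enzymes (alanine aminotransferase, dihydrolipoyl dehydrogenase, pyruvate phosphate dikinase) were added after their values were seen, and so were the genes beside the copies. Of the table's gene IDs, 0 matched the RefSeq gene table at hand.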

Additional observations from a re-analysis of the deposited data

Results flagged for a closer look

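The difference between mutant and wild type had opposite signs at 20 and 30 days for each pyruvate kinase copy, with every mutant library above wild type at the first age and below it at the second. By FPKM that shape was common, found in 28.2% of tested genes and in 24 of the 55 other pathway genes. The 30-day log2 difference less the 20-day one was -0.95 for the 1A copy (TraesCS1A02G213000), -1.41 for the 1B copy (TraesCS1B02G226500) and -1.96 for the 1D copy (TraesCS1D02G215900). This change was not tested, since the direction at 20 days chose the copies.

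For 15 of 24 other named pathway genes the same quantity passed an edgeR interaction test, adjusted over all tested genes, of which 24.0% passed. Many of the 24 were named for their change at 30 days, which is part of this quantity, so the count is a description. It was positive for all 3 alanine aminotransferase genes: TraesCS1A02G085600 at 2.20 (adjusted p = 3.25e-06), TraesCS1B02G102700 at 1.99 (adjusted p = 3.61e-05) and TraesCS1D02G086700 at 1.91 (adjusted p = 1.26e-05). It was also positive for the phosphofructokinases TraesCS1A02G386000 at 4.05 (adjusted p = 2.63e-06), TraesCS1B02G413300 at 3.64 (adjusted p = 0.000884) and TraesCS1B02G413400 at 3.26 (adjusted p = 0.0165). The malate dehydrogenase TraesCS1A02G155200 was at 0.82 (adjusted p = 0.000808) and the glucose-6-phosphate isomerase TraesCS1D02G041200 at 0.77 (adjusted p = 0.000525). All these values are with TMM factors. The median of this quantity over all tested genes was -0.02 with TMM factors, -0.80 with library totals alone and -1.81 with equal FPKM totals. Such scalings shift all genes alike, so the sizes, and the signs of the smaller positive values, depend on the scaling.

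The same quantity was negative for the 3 dihydrolipoyl dehydrogenase genes that were called, TraesCS1B02G124900 at -1.33 (adjusted p = 0.0074), TraesCS1D02G107400 at -0.92 (adjusted p = 0.000634) and TraesCS1A02G099500 at -0.89 (adjusted p = 0.00324). Of the 8 tested genes of this subunit, 5 were not called for it. The malic enzyme TraesCS1D02G164800 was at -0.88 (adjusted p = 0.0259), the hexokinase TraesCS1B02G366400 at -0.66 (adjusted p = 0.00757), the phosphofructokinase TraesCS1A02G344000 at -0.62 (adjusted p = 0.0162) and the glucose-6-phosphate isomerase TraesCS1A02G040600 at -0.60 (adjusted p = 0.00347).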

How the results depend on the processing

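At 30 days the falls of the 1B and 1D copies held under all 11 alternatives (1B -1.83 to -0.50, 1D -2.31 to -0.85) and without each library (1B -0.82 to -0.69, 1D -1.25 to -1.16). The 1A copy kept its sign (-1.51 to -0.32) but missed the threshold with no filter (-0.42), in the fit of the compared groups (-0.37) and with the replicate block (-0.40), and ranged over -0.53 to -0.35 without each library. Scaling moved the other values. At 20 days 1A was at 0.86 with library totals, 1.24 with equal FPKM totals and 0.85 with log2(FPKM + 0.1), and 1B and 1D at 1.399 and 1.48 with equal FPKM totals. For the mutant with age, library totals, equal FPKM totals, quantile normalization and log2(FPKM + 0.1) gave 1A -1.80, -1.99, -1.03 and -1.76 (log2(FPKM + 1): -1.45), 1B -2.33, -2.54, -1.31 and -2.23, and 1D -2.24, -2.45, -1.16 and -2.11. For wild type with age, library totals, equal FPKM totals, log2(FPKM + 1) and log2(FPKM + 0.1) gave 1A -0.067, 0.75, -0.047 and -0.055, 1B -0.13, 0.69, -0.082 and -0.10, and 1D 0.52, 1.34, 0.40 and 0.51. The change of the mutant difference between ages was, with library totals, equal FPKM totals and log2(FPKM + 0.1), -1.73, -2.74 and -1.70 for 1A (log2(FPKM + 1): -1.41), -2.20, -3.23 and -2.13 for 1B (quantile -1.11) and -2.76, -3.78 and -2.62 for 1D (quantile -1.45).

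Of the listed pathway genes at 30 days, library totals, equal FPKM totals and both limma fits gave 28, 44, 27 and 29 lower and 5, 4, 5 and 7 higher (quantile 6 higher), and leaving out a library gave 3 to 11 lower. Over all genes they gave 2595, 4321, 2637 and 2617 lower and 412, 238, 391 and 409 higher, with 344 to 600 lower when a library was left out (344 without wild-type replicate 1 at 30 days). With age, the listed genes higher in the mutant numbered 2, 0, 2 and 2, and in wild type equal FPKM totals gave 27 higher and 16 lower. By read counts the 1B share of wild type at 30 days was 28.4% and the 1D share of the mutant 24.4%. Of the 5 genes most like the copies, 3 were again in the first 5 with log2(FPKM + 0.1) and 0 with Spearman correlation. Signs turned with equal FPKM totals for TraesCS1A02G050100 (-0.75), TraesCS1A02G155200 (-0.58), TraesCS1A02G253200 (-0.37), TraesCS1A02G253400 (-0.86) and TraesCS1D02G252900 (-0.53). They turned with library totals, equal FPKM totals and both limma fits for TraesCS1A02G247500 (-0.28, -0.92, -0.27 and -0.29) and TraesCS1D02G041200 (-0.014, -0.65, -0.013 and -0.014). The cause was not tested.

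In no comparison did every same-numbered pair correlate above 0.1, so the numbers were not taken as pairs. Between mutant and wild type the same-numbered correlations were -0.065 to -0.024 at 20 days and -0.131 to 0.00565 at 30 days, with 0 of 6 libraries best with their own number at each age. Between ages they were -0.026 to 0.041 in the mutant (2 of 6) and -0.133 to 0.346 in wild type (3 of 6). With the replicate block 735 genes were called higher and 465 lower at 30 days, and the 1A copy had an adjusted p of 0.0590 in edgeR.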
